A study of Ambystoma mexicanum with 8 samples.

Results

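The small RNAs of the axolotl forelimb at 14 days post-amputation (dpa) were compared with those at 6 dpa, and all the 143 mature miRNAs annotated by the study entered the comparison. Each of these stages was represented by 1 small RNA library, so the comparison used 2 of the 4 small RNA libraries and 2 of the 8 libraries of the axolotl series. The other small RNA libraries came from uninjured limbs (0 dpa) and from 3 dpa, and their levels are given as context. The animals were *Ambystoma mexicanum* from the Ambystoma Genetic Stock Center, whose forelimbs were amputated through the mid-zeugopod, the middle of the lower arm, under anesthesia. Tissue at 14 dpa and at 6 dpa therefore differed only in the time after the same injury, as far as the labels say. Each library was made from pooled tissue of at least 4 limbs, so differences between animals were not measured, and strain, age and sex are not given in the sources used here.

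MiRNAs are short noncoding RNAs that bind messenger RNAs mainly through the seed, bases 2 to 8 from the 5′ end, and lower the stability or translation of their targets. During limb regeneration the stump is first covered by a wound epidermis, inflammatory cells enter, and dedifferentiated cells gather beneath the epidermis as a blastema that grows and is then patterned into new limb tissue. Many miRNAs are strongly associated with 1 cell type in other vertebrates, such as miR-1, miR-133 and miR-206 with muscle, miR-223 and miR-142 with leukocytes, miR-451 and miR-144 with red blood cells, and miR-203 with epidermis. Others, such as miR-196 and miR-10, are encoded within the Hox clusters, whose genes specify position along the limb. The roles named here are known chiefly from mammals and zebrafish.

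Some of the miRNAs on which the comparison turns are printed here in groups as the study lists their sequences, with T in place of U and the seed in capitals. The first group, higher at 14 dpa, holds the entries of the miR-196 family, which share their seed, and miR-9.
miR-196d-5p: tAGGTAGTtttatgttgttggg
miR-196a-1-5p: tAGGTAGTtttatgttgttg
miR-9-1-5p: tCTTTGGTtatctagctgtatg
The second group, also higher at 14 dpa, holds the 3 members of the miR-17-92 clusters with the miR-25/92 seed.
miR-92a-1-3p: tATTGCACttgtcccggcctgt
miR-363-3p: aATTGCACggtatccatctgta
miR-25-3p: cATTGCACttgtctcggtctga
The third group, lower at 14 dpa, holds muscle-associated miRNAs, of which the miR-1 entries and miR-206 share their seed and miR-133a has its own.
miR-1b: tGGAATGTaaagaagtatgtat
miR-1a-3p: tGGAATGTaaagaagtatgtac
miR-1d-3p: tGGAATGTtaagaagtatgtat
miR-206: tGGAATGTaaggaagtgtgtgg
miR-133a-1-3p: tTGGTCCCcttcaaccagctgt
The fourth group, lower at 14 dpa, holds blood-associated miRNAs with unrelated seeds. The sequence listed as miR-142a-5p is noted by the study as miR-142-3p.
miR-223-3p: tGTCAGTTtgtcaaatacccca
miR-142a-5p: tGTAGTGTttcctactttatgg
miR-144-5p: gGATATCAtcatatactgtaagt

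The 14 dpa library held 1918841 miRNA reads and the 6 dpa library 1262929, so values at 14 dpa rest on more reads. Libraries were scaled by TMM, a trimmed mean of log ratios between libraries, and levels are given as scaled counts per 1000000 reads (cpm), with a floor of 3 reads equal to 1.96 cpm at 14 dpa and 2.82 cpm at 6 dpa. Differences are log2 ratios of 14 dpa over 6 dpa. A miRNA was called higher or lower when its log2 ratio passed 0.58, a 1.49-fold change. With 1 library per stage there was no replicate error and no test, and the 95% intervals in brackets cover counting error only. Reads were amplified by PCR and were not counted by molecule. Whether a lower level stood for fewer cells of a type or for less RNA per cell cannot be told apart in whole tissue.

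Of the 143 miRNAs, 39 (27.3%) were higher and 33 (23.1%) were lower at 14 dpa than at 6 dpa, and 71 (49.7%) lay between the cut-offs. The median log2 ratio was -0.02. The whole counting interval lay above the cut-off for 28 miRNAs (19.6%) and below it for 20 (14.0%). Among the 112 miRNAs with at least 100 reads over both libraries, 28 were higher and 22 lower, 3 were at least 4-fold higher and 7 at least 4-fold lower. The 6 dpa library differed from the 3 dpa library by more than the cut-off in 69.2% of miRNAs and the 3 dpa library from the 0 dpa library in 55.2%, against 50.3% for 14 dpa over 6 dpa. These are counts from single libraries at steps of unequal length, neighboring steps share a library, and no test compared them.

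**Figure D1:**
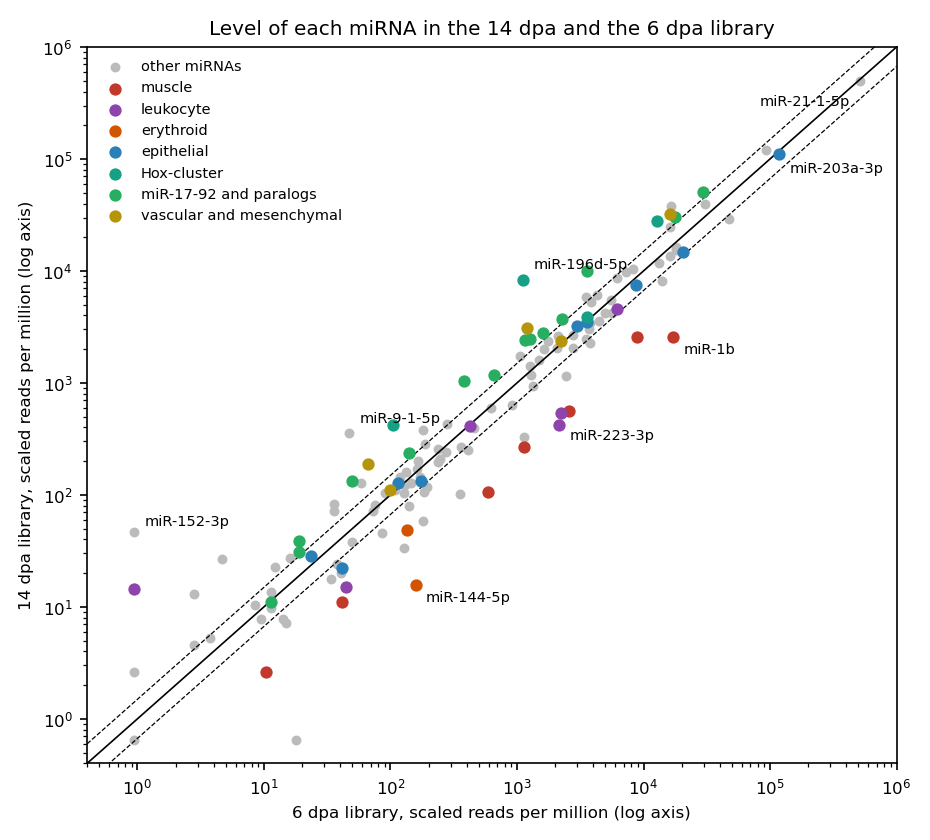
Level of each of the 140 miRNAs with reads in both libraries, in cpm on log axes, at 14 dpa (vertical) against 6 dpa (horizontal). The solid line marks equal levels and the dashed lines the cut-off, a log2 ratio of 0.58 in either direction; colored points are members of 7 lists. The muscle points lie below the lower dashed line, while miR-21 and miR-203a lie between the lines.

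The most abundant miRNAs kept their order of magnitude. miR-21, a miRNA linked to injury and growth in many tissues, made up 39.7% of reads at 14 dpa and 43.1% at 6 dpa, with a log2 ratio of -0.04 (-0.05 to -0.04). Its level was 13831, 431344, 511557 and 496581 cpm at 0, 3, 6 and 14 dpa. The 10 most abundant miRNAs took 77.8% of reads at 14 dpa and the 10 most abundant at 6 dpa took 76.2%, and 7 miRNAs were in both sets. miR-148-3p ranked second at 14 dpa with 9.54% of reads, against 7.85% at 6 dpa. The epidermal miR-203a-3p came next at 14 dpa with 169465 reads, against 126034 reads and second place at 6 dpa. Of the 10 most abundant at 14 dpa, 5 were higher than at 6 dpa by the cut-off, against 27.3% of all miRNAs. This set was chosen by its reads at 14 dpa, which favors rises, so nothing is drawn from the count. Among the 5 was miR-181a-1-5p, which tunes signaling in lymphocytes. It was sixth with 58862 reads at 14 dpa and twelfth with 17648 reads at 6 dpa, and its log2 ratio was 1.21 (1.19 to 1.24). Of the same 10 miRNAs, 1 was lower than at 6 dpa by the cut-off, against 23.1% of all miRNAs. It was miR-27a-5p, with 44368 reads at 14 dpa and 50411 reads at 6 dpa (log2 ratio -0.71).

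The 4 Hox-cluster miRNAs were each highest at 14 dpa among all 4 libraries, as were 30 of all 143 miRNAs. The cut-off for higher was passed by 3 of the 4, against 27.3% of all miRNAs. Of those 3, miR-196d-5p and miR-196a-1-5p may be forms of 1 miRNA, so the 4 entries are not independent. miR-196d-5p, a repressor of Hox8 paralogs in other vertebrates, had 12756 reads at 14 dpa and 1186 reads at 6 dpa. Its level was 549, 707, 1114 and 8323 cpm at 0, 3, 6 and 14 dpa, so that most of its gain fell in the last interval. The 14 dpa level was 7.47-fold that at 6 dpa (log2 ratio 2.90, 2.81 to 2.99). The shorter entry of the same sequence, miR-196a-1-5p, had 640 reads at 14 dpa and 111 reads at 6 dpa (95% interval of the log2 ratio 1.71 to 2.31). miR-10b-1-5p, which lies in the HoxD cluster of other vertebrates, had 42374 reads at 14 dpa and 13717 at 6 dpa (log2 ratio 1.10, 1.07 to 1.13). miR-10a-5p, its paralog in the HoxB cluster with the same seed, had 5891 reads at 14 dpa and 3773 at 6 dpa, and its log2 ratio of 0.12 (0.06 to 0.18) stayed within the cut-off. The counting intervals of the miR-10 paralogs did not overlap, which takes no account of differences between animals. Together the 4 Hox-cluster miRNAs made up 3.21% of reads at 14 dpa and 1.49% at 6 dpa.

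Of the 4 neural miRNAs, 3 were past the cut-off for higher, against 27.3% of all miRNAs. The interval lay wholly past it for miR-9-1-5p alone, 1 of 4, which is near the 19.6% of all miRNAs. miR-9, best known from neural progenitors, had 548 reads at 14 dpa and 50 reads at 6 dpa, and 28.3, 24.9, 47.0 and 358 cpm at 0, 3, 6 and 14 dpa. Its log2 ratio of 2.92 (2.51 to 3.38) was the highest among miRNAs with at least 100 reads. The other neural miRNAs had few reads. miR-124-4-3p, the neuron-enriched member, was near the floor, with 4 reads at 14 dpa and 1 read at 6 dpa (log2 ratio 1.38, -1.86 to 7.10). miR-128-1-3p had 42 reads at 14 dpa and 17 at 6 dpa, and miR-137 had 12 reads at 14 dpa and 10 at 6 dpa, and both intervals held 0.

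The miR-17-92 cluster and its paralogs, which in mammals promote proliferation and are driven by Myc, were higher at 14 dpa in 13 of 14 entries, against 27.3% of all miRNAs. The counting interval lay wholly above the cut-off for 10 of the 14, against 19.6% of all miRNAs. Members of 1 cluster are not independent, so the 14 entries are not separate observations. The median log2 ratio of the list was 0.82. Of the 14 entries, 10 were highest at 14 dpa among the 4 libraries, as were 30 of all 143 miRNAs. Their summed reads made up 8.36% (8.32% to 8.40%) of the 14 dpa library and 4.91% (4.88% to 4.95%) of the 6 dpa library. miR-93-5p was the most abundant, with 77258 reads at 14 dpa and 31317 reads at 6 dpa (log2 ratio 0.78, 0.76 to 0.80). The largest ratio belonged to miR-92a-1-3p, with 15261 reads at 14 dpa and 3793 at 6 dpa (1.48, 1.43 to 1.53). It shares its seed with miR-363-3p (1.44) and miR-25-3p (0.77), and all 3 were higher. miR-18b-5p had 203 reads at 14 dpa and 53 at 6 dpa (1.41, 0.97 to 1.88). The 4 miR-19 entries had log2 ratios between 0.76 (0.48 to 1.04) for miR-19a-2-3p and 1.03 (0.28 to 1.84) for miR-19c-3p. miR-19c-3p had only 59 reads at 14 dpa and 20 at 6 dpa, and its sequence lies within that of miR-19b-3p. Among the 6 entries with the miR-17 seed, miR-20a-2-5p had the highest log2 ratio at 1.07 (0.97 to 1.16). miR-106a-5p was the exception, with 17 reads at 14 dpa, 12 reads at 6 dpa and a log2 ratio of -0.02 (-1.18 to 1.17). miR-106b-5p passed the cut-off at 0.70 with 47 reads at 14 dpa and 20 at 6 dpa, but its interval held 0 (-0.08 to 1.54).

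**Figure D2:**
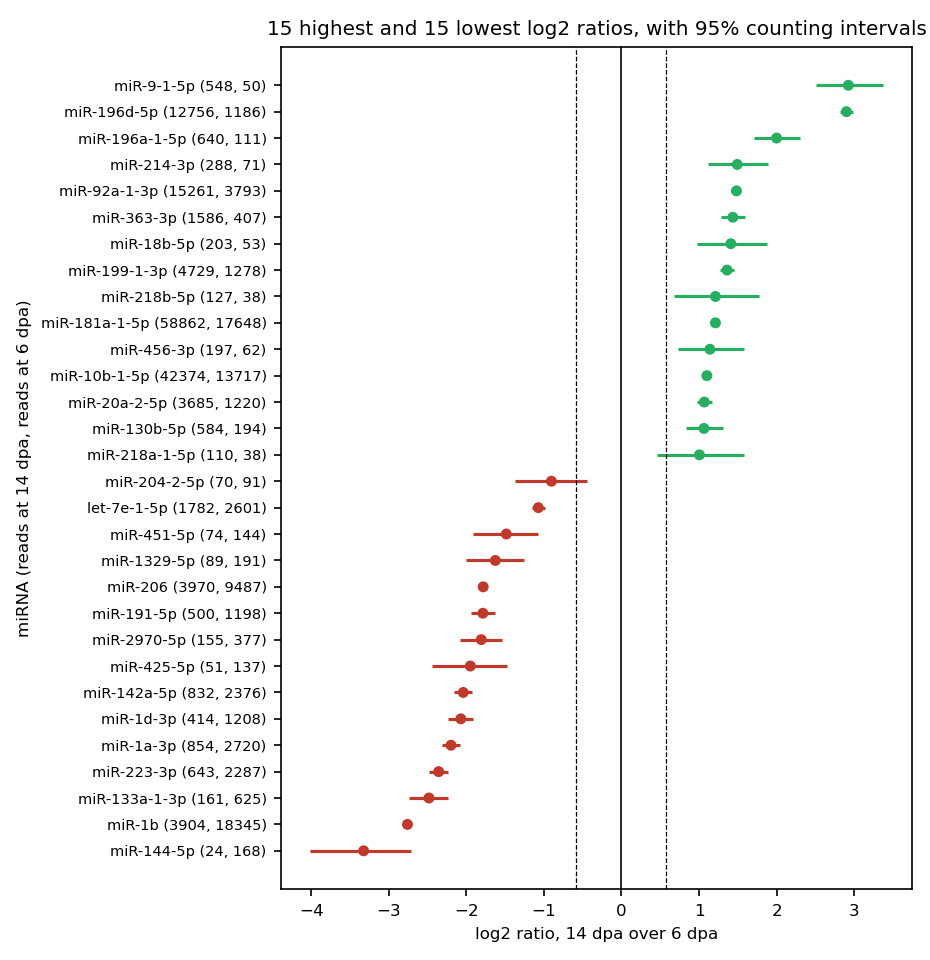
Log2 ratio of 14 dpa over 6 dpa (horizontal) for the 15 highest and 15 lowest ratios among miRNAs with at least 100 reads over both libraries, with the reads at 14 dpa and at 6 dpa beside each name. Bars are 95% counting intervals and dashed lines the cut-off of 0.58 in both directions. The ratios run between 2.92 for miR-9-1-5p and -3.32 for miR-144-5p.

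All 5 vascular and mesenchymal miRNAs had log2 ratios above 0, where the median of all miRNAs was -0.02. The cut-off for higher was passed by 3 of the 5, against 27.3% of all miRNAs. miR-214-3p, expressed in mesenchyme together with miR-199, had 288 reads at 14 dpa and 71 at 6 dpa (log2 ratio 1.49, 1.11 to 1.89). The entry named miR-199-1-3p, whose sequence the study notes as miR-199c-5p, had 4729 reads at 14 dpa and 1278 at 6 dpa (1.36, 1.27 to 1.45). Both were below their uninjured level at 14 dpa: miR-214-3p had 493, 64.3, 66.7 and 188 cpm at 0, 3, 6 and 14 dpa, and miR-199-1-3p had 5799, 2480.4, 1201 and 3086 cpm. miR-143-1-3p, a smooth muscle and fibroblast miRNA, had 49129 reads at 14 dpa and 17209 at 6 dpa (0.99, 0.96 to 1.01). Its cluster partner miR-145-5p had only 169 reads at 14 dpa and 106 at 6 dpa (0.15, -0.21 to 0.51). The counting intervals of the partners did not overlap, and the difference was not tested. The endothelial miRNA miR-126, listed as miR-126a-5p, had a log2 ratio of 0.09 (0.02 to 0.17), and of 0.02 when scaled by total counts.

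Muscle-associated miRNAs were lower at 14 dpa in 7 of 7 entries, against 23.1% of all miRNAs. Each had its lowest level of the 4 libraries at 14 dpa, as did 40 of all 143 miRNAs. The median log2 ratio of the list was -2.07, the value of miR-1d-3p, beside -0.02 for all miRNAs. miR-1b had 3904 reads at 14 dpa and 18345 reads at 6 dpa, and its level was 6.77-fold lower at 14 dpa (log2 ratio -2.76, -2.81 to -2.71). It had changed little before: 21954, 18412, 17239 and 2547 cpm at 0, 3, 6 and 14 dpa. The related miR-1a-3p had 854 reads at 14 dpa and 2720 at 6 dpa (-2.20, -2.31 to -2.09), and its level was 14847, 10579, 2556 and 557 cpm in the order of the stages. Counted in cpm, most of the loss of miR-1a-3p thus lay before 6 dpa and most of that of miR-1b after it. Their sequences differ only in the last base, and whether they are forms of 1 miRNA was not tested. miR-206, the skeletal muscle and satellite cell member, had 3970 reads at 14 dpa and 9487 at 6 dpa (-1.78, -1.84 to -1.73). Its level was 85331, 11973, 8915 and 2590.3 cpm at 0, 3, 6 and 14 dpa.

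miR-133a-1-3p, which is co-transcribed with miR-1 in other vertebrates, had 161 reads at 14 dpa and 625 reads at 6 dpa (log2 ratio -2.48, -2.74 to -2.23). miR-499-5p and miR-208b-3p, which are encoded in introns of myosin heavy chain genes in mammals, were scarce. miR-499-5p had 17 reads at 14 dpa and 44 at 6 dpa (-1.89, -2.80 to -1.06), and miR-208b-3p had 4 reads at 14 dpa and 11 at 6 dpa (-1.94, -4.09 to -0.23). Summed over the list, muscle-associated miRNAs made up 0.486% of reads at 14 dpa and 2.57% at 6 dpa, and 144297, 44529, 30484 and 6084 cpm at 0, 3, 6 and 14 dpa.

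The cartilage-associated miR-140-3p, which takes part in chondrocyte maturation, was also lowest at 14 dpa, with 12400 reads at 14 dpa and 14954 at 6 dpa. Its log2 ratio was -0.80 (-0.83 to -0.76), and its level was 180636, 53031, 14052 and 8091 cpm at 0, 3, 6 and 14 dpa. miR-455-1-5p, also made in cartilage, had 145 cpm at 14 dpa and 170.1 cpm at 6 dpa (log2 ratio -0.23, -0.52 to 0.06).

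Several blood-associated miRNAs were lower at 14 dpa. Both erythroid miRNAs and 3 of the 6 leukocyte miRNAs passed the cut-off for lower, against 23.1% of all miRNAs. The cut-off for higher was passed by 1 leukocyte miRNA, against 27.3% of all miRNAs. miR-144-5p had 24 reads at 14 dpa and 168 reads at 6 dpa, and its log2 ratio of -3.32 (-4.02 to -2.71) was the lowest among miRNAs with at least 100 reads. Its cluster partner miR-451-5p, the main miRNA of red blood cells, had 74 reads at 14 dpa and 144 at 6 dpa (-1.48, -1.91 to -1.07). miR-451-5p remained above the uninjured limb at 14 dpa, with 2.22, 143, 135 and 48.3 cpm at 0, 3, 6 and 14 dpa, whereas miR-144-5p had 28.3, 297, 158 and 15.7 cpm.

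miR-223-3p, made by neutrophils and macrophages, had 643 reads at 14 dpa and 2287 at 6 dpa (log2 ratio -2.36, -2.49 to -2.23). Its level was 218, 2846, 2149 and 419.5 cpm at 0, 3, 6 and 14 dpa. miR-142a-5p, a miRNA of all blood lineages, had 832 reads at 14 dpa and 2376 at 6 dpa (-2.04, -2.16 to -1.93), and miR-150-5p, of mature lymphocytes, had 23 reads at 14 dpa and 47 at 6 dpa (-1.55, -2.34 to -0.81). The activation-linked miR-155-5p and miR-146a-5p did not move by the cut-off. miR-155-5p had 638 reads at 14 dpa and 449 at 6 dpa (-0.02, -0.20 to 0.16), and miR-146a-5p, an NF-kappaB target that is also made outside leukocytes, had 6993 reads at 14 dpa and 6539 at 6 dpa (-0.43, -0.48 to -0.38). The counting intervals of miR-155-5p and miR-146a-5p did not overlap those of miR-223-3p and miR-142a-5p, and the difference was not tested. The leukocyte miRNA past the cut-off for higher was miR-146b-5p, which shares its seed with miR-146a-5p. It had 22 reads at 14 dpa and 1 read at 6 dpa (3.78, 1.30 to 9.30).

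**Figure D3:**
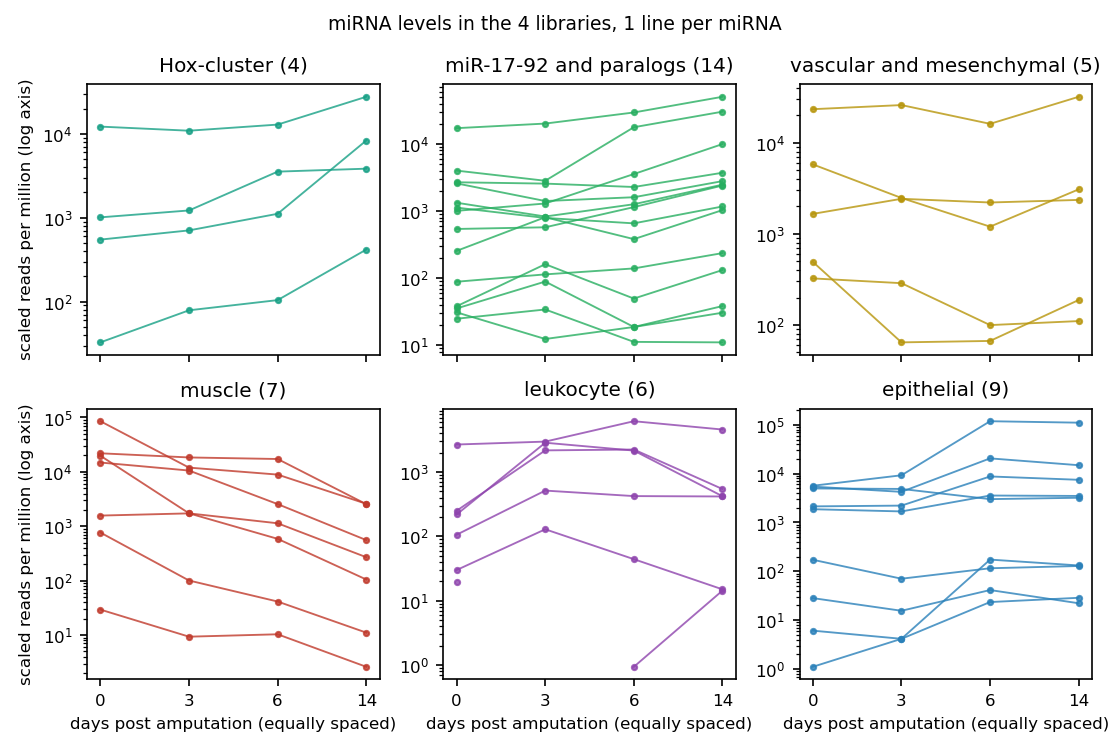
Level in cpm (vertical, log axis) of the members of 6 lists in the libraries of 0, 3, 6 and 14 dpa (horizontal, stages equally spaced), 1 line per miRNA, with points at 0 reads left out. Muscle lines are lowest at 14 dpa and Hox-cluster lines highest, while 8 of the 9 epithelial lines stay within the cut-off between 6 and 14 dpa.

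Most epithelial miRNAs stayed within the cut-off between these stages. Of the 9 entries of the miR-200, miR-203 and miR-205 families, 8 lay between the cut-offs, against 49.7% of all miRNAs, and the median log2 ratio was -0.10. miR-203a-3p, which restrains proliferation of epidermal cells in mammals, had 5650.0, 9256, 118435 and 110572 cpm at 0, 3, 6 and 14 dpa and a log2 ratio of -0.10 (-0.11 to -0.09). The miR-200 family maintains epithelial identity by repressing Zeb genes. Its members miR-200a-3p, miR-200c-3p and miR-429a-3p ranged between log2 ratios of -0.46 for miR-200c-3p and -0.03 for miR-429a-3p. Of these, miR-200c-3p and miR-429a-3p share the seed AATACTG, and miR-200a-3p has the seed AACACTG. The entry miR-200b (0.15) has an unlike seed, ATCTTAC, and its ratio is given apart. The entry past the cut-off was the minor arm miR-205a-3p, with 34 reads at 14 dpa and 44 at 6 dpa (-0.89, -1.59 to -0.22), while miR-205-5p had a log2 ratio of 0.09 (0.03 to 0.16). The miR-183 cluster of sensory epithelia had ratios of 0.51 for miR-183-5p, 0.34 for miR-182-5p and -0.20 for miR-96-5p. The epithelial list made up 11.2% of reads at 14 dpa and 13.0% at 6 dpa.

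**Figure D4:**
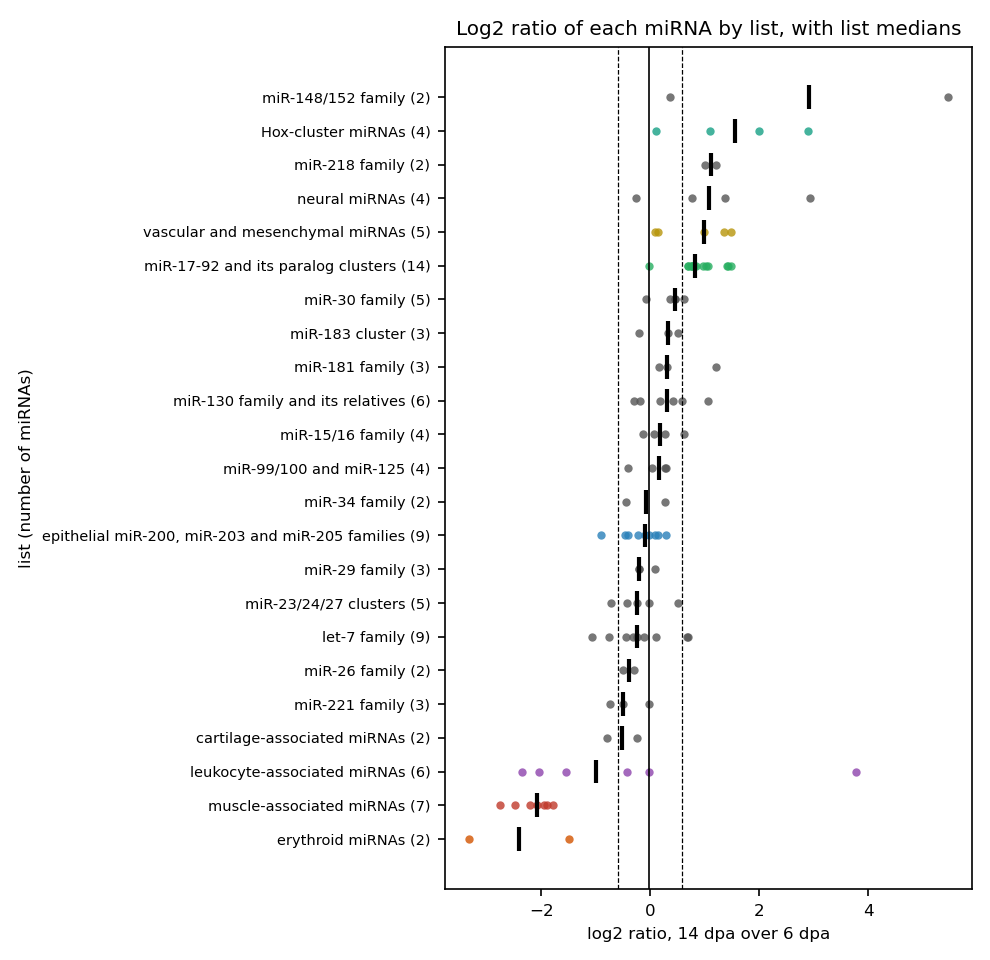
Log2 ratio of 14 dpa over 6 dpa (horizontal) of each member of 23 lists (vertical, with the number of miRNAs), 1 point per miRNA. Thick bars are list medians, the solid line is the median of all miRNAs (-0.02) and the dashed lines mark the cut-off; muscle points lie between -2.76 and -1.78, and 13 of the 14 miR-17-92 points lie above 0.58.

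Members of the let-7 family, which restrain growth and mark differentiated tissue in many animals, were called in both directions about as often as all miRNAs. The list had a median log2 ratio of -0.25, with 2 of 9 entries higher (27.3% of all miRNAs), 2 lower (23.1%) and 5 between (49.7%). These 3 entries share the seed but not the direction of their ratio.
let-7c-1-5p: tGAGGTAGtaggttgtatggtt
let-7b-1-5p: tGAGGTAGtaggttgtgtgg
let-7e-1-5p: tGAGGTAGtggattgaatagtt
let-7c-1-5p had 2647 reads at 14 dpa and 1130 at 6 dpa (log2 ratio 0.70, 0.60 to 0.80). let-7e-1-5p had 1782 reads at 14 dpa and 2601 at 6 dpa (-1.07, -1.16 to -0.98), and let-7b-1-5p had 3466 reads at 14 dpa and 4051 at 6 dpa (-0.75, -0.82 to -0.69). The most abundant members, let-7a-1-5p with 25261 reads at 14 dpa and 19065 at 6 dpa and let-7f-5p with 20905 reads at 14 dpa and 17244 at 6 dpa, had ratios of -0.12 and -0.25. The star strand let-7i-3p, the second entry past the cut-off for higher, had 7 reads at 14 dpa and 3 reads at 6 dpa (0.68, -1.43 to 3.28). let-7h-5p had 1 read in each library, so no ratio is given.

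Over all miRNAs, 22 seeds were shared by 2 or more entries, together 68 miRNAs, and let-7 was the only shared seed with entries past the cut-off in both directions. The miR-181 entries also share a seed, and miR-181b-1-5p (log2 ratio 0.30, 0.23 to 0.38) and miR-181c-5p (0.16, 0.06 to 0.26) were below miR-181a-1-5p. The sequence of miR-181b-1-5p lies within that of miR-181c-5p, so they may be forms of 1 miRNA. The log2 ratio of their sum was 0.25 (0.19 to 0.31). miR-152-3p shares its seed with the abundant miR-148-3p. It had 71 reads at 14 dpa and 1 read at 6 dpa (5.47, 3.10 to 10.95), whereas miR-148-3p had 183052 reads at 14 dpa and 99102 at 6 dpa (0.36, 0.35 to 0.37). The level of miR-152-3p was 317 cpm at 0 dpa, with 0 reads at 3 dpa.

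The miR-218 entries, encoded in introns of Slit genes in other vertebrates, were both higher at 14 dpa, against 27.3% of all miRNAs. The interval lay wholly above the cut-off for miR-218b-5p only. miR-218b-5p had 127 reads at 14 dpa and 38 reads at 6 dpa (log2 ratio 1.21, 0.68 to 1.78). Its sequence lies within that of miR-218a-1-5p (1.01, 0.46 to 1.58), so both entries may be forms of 1 miRNA. The counts in the next families were of few entries, beside 27.3% higher and 23.1% lower among all miRNAs. In the miR-30 family, 1 of 5 entries passed the cut-off for higher and none for lower. miR-30e-2-5p, its most abundant entry, had 60254 reads at 14 dpa and 32550 at 6 dpa (0.36, 0.34 to 0.38). Among the 5, miR-30a-3p does not have the seed that the other 4 share. In the miR-130 family and its relatives 2 of 6 were higher, among them miR-130b-5p with 584 reads at 14 dpa and 194 at 6 dpa (1.06, 0.83 to 1.31). The seed of miR-130b-5p is not the one that the other 5 entries share. In the miR-23/24/27 clusters miR-27a-5p was lower and the other 4 entries lay between the cut-offs. The miR-15/16 family had 1 of 4 entries higher, miR-16a-5p at 0.63 (0.43 to 0.83), and the miR-221 family had 1 of 3 lower, miR-222b-3p at -0.73 (-1.03 to -0.43). The sequence of miR-222b-3p lies within that of miR-222a-3p, and the ratio of their sum, -0.50 (-0.74 to -0.25), was within the cut-off. No entry of the miR-26, miR-29 and miR-34 families or of the miR-99/100 and miR-125 group passed the cut-off. In that last group the median ratio was 0.16 but the summed ratio -0.21, because miR-100-1-5p (-0.41) holds most of the reads.

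The study's 10 miRNAs shared by zebrafish, bichir and axolotl were chosen in part on the 6 dpa library, so their ratios to that library are not independent of the choice. Of these, 3 were lower at 14 dpa, near the 23.1% of all miRNAs, and none was higher, against 27.3% of all miRNAs. The median log2 ratio of the 10 was -0.03. The lower ones were miR-133a-1-3p, miR-204-2-5p with 70 reads at 14 dpa and 91 at 6 dpa (-0.90, -1.38 to -0.44), and miR-338-1-3p with 37 reads at 14 dpa and 40 at 6 dpa (-0.64, -1.32 to 0.04). miR-31-5p had 31.6, 47.7, 246 and 207 cpm at 0, 3, 6 and 14 dpa.

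Of the 31 miRNAs in no list, 6 were higher and 13 lower at 14 dpa, against 27.3% and 23.1% of all miRNAs. miR-191-5p and miR-425-5p, neighbors in 1 cluster in mammals, were both lower: miR-191-5p had 500 reads at 14 dpa and 1198 at 6 dpa (log2 ratio -1.79, -1.94 to -1.64), and miR-425-5p had 51 reads at 14 dpa and 137 at 6 dpa (-1.95, -2.45 to -1.48). Both were above their uninjured level at 6 dpa, miR-191-5p with 336, 993, 1126 and 326 cpm and miR-425-5p with 31.1, 107, 129 and 33.3 cpm at 0, 3, 6 and 14 dpa. miR-2970-5p had 155 reads at 14 dpa and 377 at 6 dpa (-1.81, -2.09 to -1.54), and miR-1329-5p had 89 reads at 14 dpa and 191 at 6 dpa (-1.63, -2.01 to -1.26). Among the higher ones, miR-456-3p had 197 reads at 14 dpa and 62 at 6 dpa (1.14, 0.72 to 1.58).

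Some miRNAs were almost absent at 1 of these stages, with 10 at 3 reads or fewer in either library. miR-135-5p had 24 reads at 14 dpa and 0 reads at 6 dpa, and was 5.55-fold higher at 14 dpa when the floor of 3 reads was put in place of 0. The lower end of the counting interval of its log2 ratio was 2.06. miR-281 had 20 reads at 14 dpa and 3 at 6 dpa (log2 ratio 2.17, 0.46 to 4.60). miR-2188-5p had 1 read at 14 dpa and 19 at 6 dpa (-4.55, -10.15 to -2.12). miR-194a-5p, with 0 reads at 14 dpa and 3 reads at 6 dpa, and miR-328-5p, with 0 reads in each library, were at or under the floor in both libraries and no fold is given, although the miRNA counts include both. miR-2954-3p, just above the floor and named after its values were seen, had 41 reads at 14 dpa and 5 at 6 dpa (2.48, 1.17 to 4.21).

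In 9 pairs of entries the shorter sequence lay within the longer one, so that the table held 2 forms of what may be 1 miRNA with different ends. In 8 of the pairs both forms begin at the same base and share the seed, as in the miR-27 pair.
miR-27b-3p: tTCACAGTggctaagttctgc
miR-27d-3p: tTCACAGTggctaagttctg
The shorter form, miR-27d-3p, made up 40.7% (39.97% to 41.5%) of the pair's reads at 14 dpa and 53.5% (52.5% to 54.5%) at 6 dpa. The log2 ratio was 0.51 for the longer and -0.24 for the shorter form, and 0.16 (0.12 to 0.19) for their sum. In the miR-196 pair the shorter form made up 4.78% (4.42% to 5.15%) at 14 dpa and 8.56% (7.09% to 10.2%) at 6 dpa. In the miR-26 pair it made up 55.1% (54.0% to 56.2%) at 14 dpa and 51.5% (50.4% to 52.7%) at 6 dpa. The share of the shorter form was lower at 14 dpa in 5 pairs and higher in 4, and the exact binomial intervals of the stages were apart in these 3 pairs only. The shorter form of the miR-203 pair, which starts at base 3 of the longer form and so has another seed, held 0.119% of the pair's reads at 14 dpa and 0.147% at 6 dpa.

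**Figure D5:**
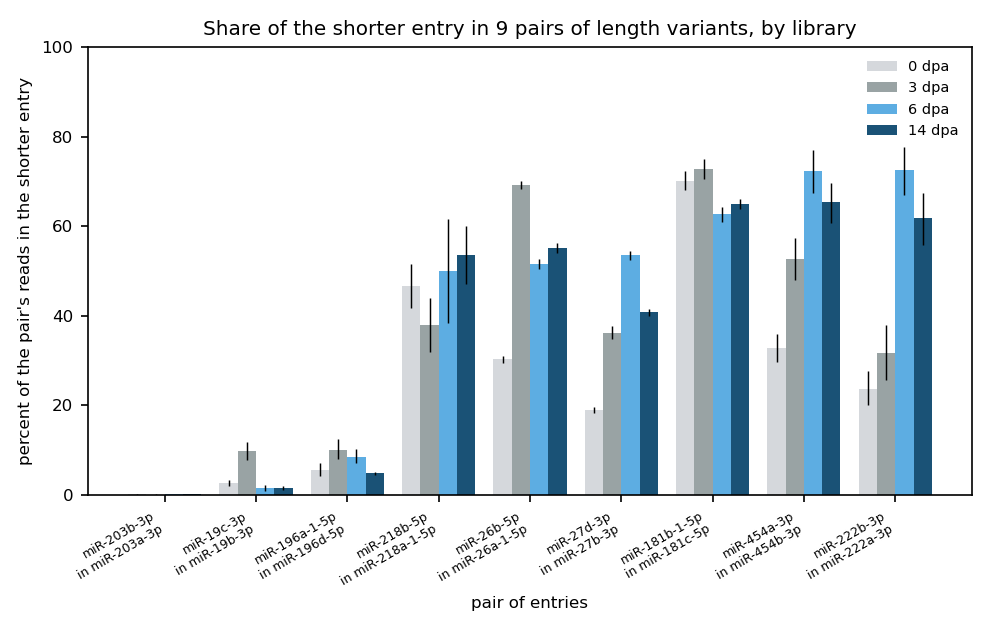
Percent of each pair's reads in the shorter entry (vertical) for 9 pairs of length variants (horizontal) in the 4 libraries, with exact 95% binomial intervals. For miR-27d-3p the bar is 40.7% at 14 dpa and 53.5% at 6 dpa; the bars of miR-203b-3p are below 1% and do not show.

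Base composition, length and level were set beside the log2 ratio. Over the 129 miRNAs that reached 10 reads at 14 dpa and at 6 dpa, all measured in the same pair of libraries, Pearson's r of the log2 ratio was 0.07 with GC content, 0.04 with length and 0.13 with mean log2 level, and Spearman's rho was 0.05, 0.16 and 0.15 in the same order. The median GC content was 43.5% for higher miRNAs, 45.5% for lower ones and 45.0% for those between. Over the 126 miRNAs that reached 10 reads in each of the 4 libraries, the log2 ratio of 14 dpa over 6 dpa had Pearson's r of -0.12 and Spearman's rho of -0.10 with that of 3 dpa over 0 dpa, which shares no library with it. These are descriptions across miRNAs, which are not independent.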

How the data were processed

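The small RNA values come from tag counts that the authors made with the FASTX Toolkit after removal of adapters and poor bases. Names were given by the authors with miRMiner, which matched tags of 20 to 25 nt to miRBase, and edgeR was the authors' tool for fold changes. The labels also name Trimmomatic and RSEM, without versions. The deposited values are log2 of whole read counts without scaling, although the table is named as log2 cpm. The column of the 3 dpa library was deposited in the same form, with 3 error marks. Powers of 2 were whole numbers within a relative deviation of 3.46e-09, and 7 error marks over all columns were read as 0 reads.

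Reads were scaled by TMM with 0 dpa as the reference, trimming 30% of log ratios and 5% of levels, which gave factors of 0.799 at 14 dpa and 0.843 at 6 dpa. A prior count of 0.125 was added. For log2 ratios, the share of a miRNA's reads over both libraries that came from the 14 dpa library was taken. The exact Clopper-Pearson interval (95%) of that share was turned into a log2 ratio. Intervals of percentages are exact Clopper-Pearson intervals of the printed share itself. Python 3.11.15 with NumPy, pandas and SciPy was used, and the computation was tested on simulated data. All 143 miRNAs matched a mature sequence of the study's sequence file. Positions are left out because no axolotl genome was used. The mRNA libraries were not analysed here.

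The comparison, the 24 lists and the rule for named miRNAs were chosen with earlier results of these data known. Named were the 10 most abundant at 14 dpa, the 15 highest and 15 lowest ratios with at least 100 reads, list members, length variants and miRNAs with 3 reads or fewer. Alternatives were 5 other scalings, a prior count of 1, a minimum of 10 reads in every library, length variants summed and a cut-off of 1.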

Additional observations from a re-analysis of the deposited data

How the results depend on the processing

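A cut-off of 1 in place of 0.58 left 22 miRNAs higher and 20 lower at 14 dpa than at 6 dpa. Under the other alternatives the counts ran from 36 to 45 higher and from 29 to 34 lower, apart from 34 higher and 28 lower when only the 126 miRNAs reaching 10 reads in each library were kept. The upper quartile scaling moved the median of all miRNAs by 0.17, to 0.15 on the log2 scale and gave 45 higher and 29 lower, and summing length variants moved it to 0.11. No named miRNA past the cut-off changed sign under any alternative. Over the 6 scalings, 36 of the 39 higher and 29 of the 33 lower miRNAs kept their call. Muscle (7 of 7 lower) and miR-17-92 (13 of 14 higher) kept their counts under each scaling, while in the miR-30 family from 0 to 3 of 5 were higher. miR-30d-5p, miR-301a-3p and miR-16a-5p were within the cut-off under total counts and with miR-21 left out of the scaling, and miR-27a-5p, miR-22b-3p, miR-222b-3p and miR-338-1-3p under the upper quartile, miR-338-1-3p also with TMM against the 6 dpa library. No paired analysis was possible because each stage has 1 library, and none could be left out. Depth limits the miRNAs with few reads, whose counting intervals span several log2 units.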
